A study of Homo sapiens with 30 samples.

Results

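The estrogen receptor genes were followed through bone morphogenetic protein 4 (BMP4) treatment of breast cancer cells: GPR30, the array's name for GPER1, the nuclear receptors ESR1 and ESR2, and the receptor target genes PGR, TFF1, TFF3 and GREB1. The members were every probe that the array files name for these 7 genes, 13 of 41000 probes. GPR30 was chosen by its own measured late rise of the BMP4 over vehicle ratio, so its ratios are given here as a description with no test. The other 6 genes were added as the receptor pathway around it. Differences of the vehicle level between lines had no part in the choice and were tested for all 13 probes. The vehicle level over time is part of the ratio, so it was tested for the 12 probes other than GPR30.

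Estrogen acts on breast epithelial cells through nuclear receptors, which bind DNA and switch on genes such as PGR, TFF1, TFF3 and GREB1, and through GPR30, a membrane receptor coupled to G proteins that signals rapidly through cAMP and kinases. BMP4 is a secreted ligand of the TGF-beta family whose receptors phosphorylate SMAD proteins, and its best known target genes are the ID genes. ESR1 is the receptor that defines hormone-dependent breast cancer.

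ZR-75-30, SK-BR-3, HCC1419, MDA-MB-361 and HCC1954 are established human breast cancer cell lines. Each line received recombinant human BMP4 or vehicle and was sampled 6 times, first after 30 min and last after 24 h, with 1, 3, 6 and 12 h between, and triplicate cultures were pooled before RNA extraction. On each of the 30 arrays, 1 per line and time point, RNA of BMP4-treated cells was labeled with Cy5 and RNA of vehicle-treated cells of the same line and time with Cy3. The study asked which genes respond to BMP signaling and when. No dyes were swapped, so a dye bias of a probe stays in each ratio but cancels in a difference between time points where it is the same on every array. Each line is a single established line with 1 array per time point, and the 5 lines served as the replicates (n = 5). A positive log2 ratio means a higher level with BMP4, and 1 on this scale is 2-fold.

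Of all probes, between 58.9% and 70.6% were well above background by the scanner software in Cy3 and between 56.3% and 70.8% in Cy5. The lowest correlation between the ratios of 2 arrays over all probes was -0.57, and directions were kept because the labels state the dyes. KRT8, KRT18 and KRT19, keratins of luminal epithelium, were well above background on all 30 arrays, as was ERBB2, the HER2 receptor gene. KRT19 had a mean log2 vehicle level of 11.21 in HCC1954 against 17.53 to 17.61 in the other lines. CDH1, the epithelial cadherin, was well above background on 24 of 30 arrays and had a mean log2 vehicle level of 6.51 in SK-BR-3 against 14.88 to 16.79 in the other lines. Of markers of other cell types, the leukocyte gene PTPRC was above background on 0 arrays and COL1A2 of fibroblasts on 1. COL1A1 was above background on 28 arrays, and the endothelial gene PECAM1 on 6, with its highest mean level, 9.19, in HCC1954.

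The sequence just before the RefSeq starts of GPER1 is shown because GPR30 is the member whose ratio rose. RefSeq (GRCh38.p14) had promoter windows for 4 of the 7 genes, GPER1, ESR1, ESR2 and PGR, in 16 windows, and the 250 bases before each start were searched on both strands. Capitals mark the SMAD motifs (GGCGCC as well as GTCTG and the palindrome GTCTAGAC) and the GGTCA core of the estrogen response element. SMAD6, an inhibitory SMAD gene that BMP induces, is shown beside them for its GTCTAGAC palindrome, and GPER1 and SMAD6 are both on the plus strand. It was picked for that match. The windows of ID1, ID2, ID3, ID4 and SMAD7, searched as well, held neither the palindrome nor GGCGCC, and those of ID1 and ID2 held no GTCTG.
GPER1 start 1, chr7:1086868-1087117: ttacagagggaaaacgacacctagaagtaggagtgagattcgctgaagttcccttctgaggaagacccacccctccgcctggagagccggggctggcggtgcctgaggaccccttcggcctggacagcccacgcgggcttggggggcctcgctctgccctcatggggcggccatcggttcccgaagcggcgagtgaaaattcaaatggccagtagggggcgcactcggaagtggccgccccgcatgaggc
GPER1 start 2, chr7:1087863-1088112: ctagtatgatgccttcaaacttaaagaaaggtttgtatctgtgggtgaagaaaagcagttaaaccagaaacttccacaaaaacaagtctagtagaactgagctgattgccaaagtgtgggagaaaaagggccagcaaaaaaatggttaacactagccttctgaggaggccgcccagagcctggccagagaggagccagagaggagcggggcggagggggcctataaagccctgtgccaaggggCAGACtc
SMAD6, chr15:66701986-66702235: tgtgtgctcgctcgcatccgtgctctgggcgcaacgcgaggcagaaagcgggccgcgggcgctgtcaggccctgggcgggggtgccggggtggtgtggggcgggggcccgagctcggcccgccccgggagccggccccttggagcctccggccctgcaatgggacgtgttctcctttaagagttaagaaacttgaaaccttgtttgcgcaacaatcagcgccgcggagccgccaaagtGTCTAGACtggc
The window of GPER1 start 1 held none of these letters, and that of start 2 held GTCTG on the minus strand (CAGAC as printed), which begins 7 bases before the start. GTCTG occurred in 38.0% of 35116 windows of the same length, GGCGCC in 16.4%, GTCTAGAC in 0.182% and GGTCA in 32.6%. Neither GPER1 window held GGTCA, and GGCGCC and the full palindromic estrogen response element, which 0.0399% of all windows held, were in windows of 0 of these 4 genes. A match is a description of the letters and not a measured binding site.

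GPR30 was represented by 1 probe, at chr7:1099862-1099921 of the hg18 build on the plus strand, and both channels passed the background test on 30 of 30 arrays. In HCC1419 its log2 ratio at the 6 times in order was 0.09, 0.41, 1.36, 1.93, 1.88 and 1.39. In MDA-MB-361 the ratio went from -0.21 through 0.19, 1.12, 1.73 and 1.69 to 1.58. In SK-BR-3 it was 0.10, 0.47, 1.11, 1.73, 1.92 and 1.39 at the same times. These 3 lines followed nearly one course, past 2-fold by 3 h and highest at 6 or 12 h. ZR-75-30 was slower, with ratios of 0.14, 0.35, 0.23, 0.92, 1.62 and 1.22. HCC1954 stayed lowest, with ratios of -0.21, 0.07, 0.14, 0.35, -0.01 and 0.38. The highest ratio of each line was thus 3.81-fold in HCC1419 (6 h), 3.31-fold in MDA-MB-361 (6 h), 3.78-fold in SK-BR-3 (12 h), 3.08-fold in ZR-75-30 (12 h) and 1.30-fold in HCC1954 (24 h).

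**Figure D1:**
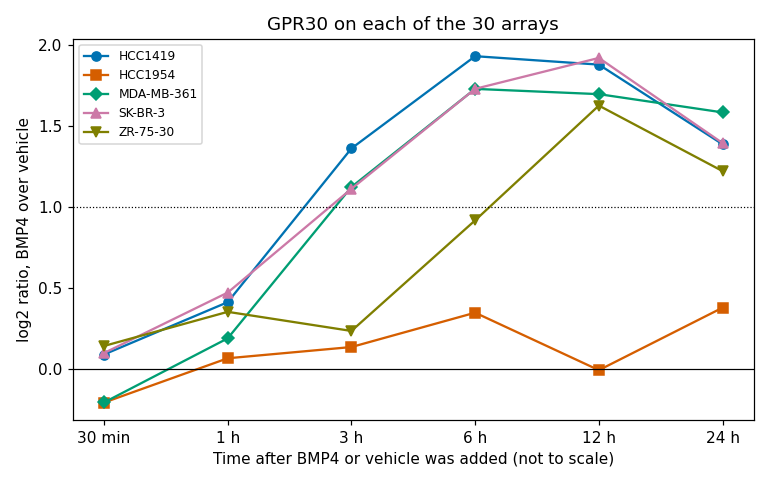
The log2 ratio of GPR30, BMP4 over vehicle, is plotted against time for each cell line, 1 array per point; the dotted line marks 2-fold. HCC1419, MDA-MB-361 and SK-BR-3 pass it at 3 h, ZR-75-30 at 12 h, and HCC1954 has a highest value of 0.38.

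The mean log2 ratio of GPR30 over the lines was -0.02 ± 0.17 at 30 min (SD, n = 5) and 0.30 ± 0.17 at 1 h, then 0.79 ± 0.56 (3 h), 1.33 ± 0.67 (6 h), 1.42 ± 0.81 (12 h) and 1.19 ± 0.47 (24 h). The spread between lines was wider from 3 h on than before, and HCC1954 was the lowest line from 1 h on. From 30 min to 1 h the ratio was already higher in 5 of 5 lines, by 0.40 in MDA-MB-361 and by as little as 0.21 in ZR-75-30. The late change, the mean of 3, 6, 12 and 24 h minus 30 min with the line as a block, was 1.20 ± 0.16 (SE) on the log2 scale. By line it was 1.74 in MDA-MB-361, 1.55 in HCC1419, 1.44 in SK-BR-3, 0.86 in ZR-75-30 and 0.42 in HCC1954 (SD 0.55). The SE comes from the residuals of single arrays and does not measure this SD between lines. The late change of 1.20 was rank 2 of 41000 probes, after a probe of ID2, and the rank describes what chose the gene. GPR30 reached 2-fold up on 14 of 30 arrays, and 7 probes in all did so on at least 14 arrays, those of ID1, ID2, ID4, EDN2, GIPR and GPR30. The count of 7 holds for the ratios as processed here. By its own values the study lists further genes that were up as often, DUSP2 among them. Over all probes and arrays, 0.240% of values were at least 2-fold up and 0.260% at least 2-fold down.

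The GPR30 level of the BMP4 channel moved in the lines with a large ratio, and that of the vehicle channel moved less. After scaling of both channels between arrays, the BMP4 level rose from 30 min to the late mean by 1.99 on the log2 scale in MDA-MB-361, 1.65 in HCC1419 and 1.37 in SK-BR-3. ZR-75-30 had a rise of 0.69 and HCC1954 a difference of 0.08. The vehicle level of GPR30 differed over the same times by 0.25 in MDA-MB-361, 0.10 in HCC1419, -0.07 in SK-BR-3, -0.16 in ZR-75-30 and -0.34 in HCC1954. In HCC1954, then, the vehicle channel moved more than the BMP4 channel.

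**Figure D2:**
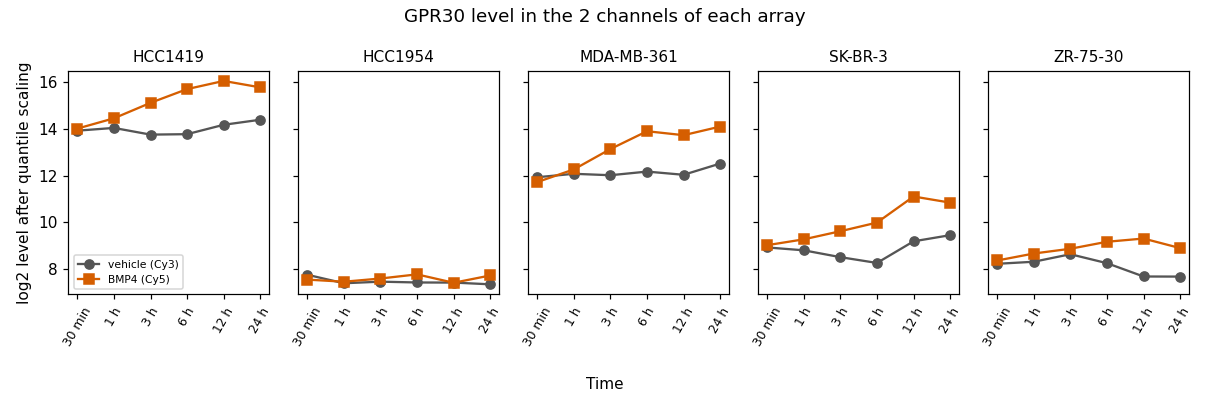
The log2 level of GPR30 in vehicle-treated (Cy3) and BMP4-treated (Cy5) cells is plotted at each time for the 5 lines, 1 array per pair of points. The channels part from 3 h on in HCC1419, MDA-MB-361 and SK-BR-3 and stay close in HCC1954.

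Arrays were scanned on 7 days, and the late change of GPR30 was recomputed within a day where a line had its 30 min array and a later one on that day. It was 1.55 in HCC1419 and 1.74 in MDA-MB-361, each scanned on 1 day, 0.79 in ZR-75-30 (3 and 12 h) and 0.20 in HCC1954 (12 h). In SK-BR-3 the 30 min array and the later arrays were scanned on different days, so day and time cannot be told apart there. With scan day as a block beside the line the GPR30 late change was 1.20, and without HCC1954 it was 1.40. An offset of 50 was added before logs were taken. In HCC1954 the late change was 0.42 with that offset, 0.52 with an offset of 16 and 0.55 with the scanner software's own log ratio. In the same order it was 0.86, 0.94 and 1.12 in ZR-75-30 and 1.44, 1.57 and 1.65 in SK-BR-3. It was 1.55, 1.55 and 1.54 in HCC1419 and 1.74, 1.75 and 1.78 in MDA-MB-361. Whether low signal lowered the ratio of a line was not tested.

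None of the 12 probes of the other 6 genes was called for the late change, by limma at an adjusted p under 0.05. Over all probes 0.0927% were called, 38 probes, all of them higher, and at an unadjusted p under 0.05 the count among the 12 probes was 0 as well. Their estimates lay between -0.14 (TFF1 probe 2) and 0.03 (GREB1 probe 2), where probe 1 of a gene is its brightest. The widest 95% interval was that of GREB1 probe 1, from -0.40 to 0.17, so a change anywhere in that range was within the error of these arrays. The interval and the late-change p-values here rest on residuals of single arrays. They do not measure the spread between lines, whose values for GREB1 probe 1 ran from -0.55 to 0.33. For comparison, the BMP target controls moved in these arrays: 5 of 6 genes were called and higher, ID1 by 1.02, ID2 by 1.33, ID3 by 0.96, ID4 by 0.94 and SMAD6 by 0.75, with adjusted p-values of 0.000109 (ID3) to 0.00164 (ID4 and SMAD6). SMAD7 had a late change of 0.25 (adjusted p = 0.826). The study ranks ID1, ID2, ID3 and ID4 among its most regulated genes in these same arrays. Their calls were thus known beforehand and are no independent control.

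**Figure D3:**
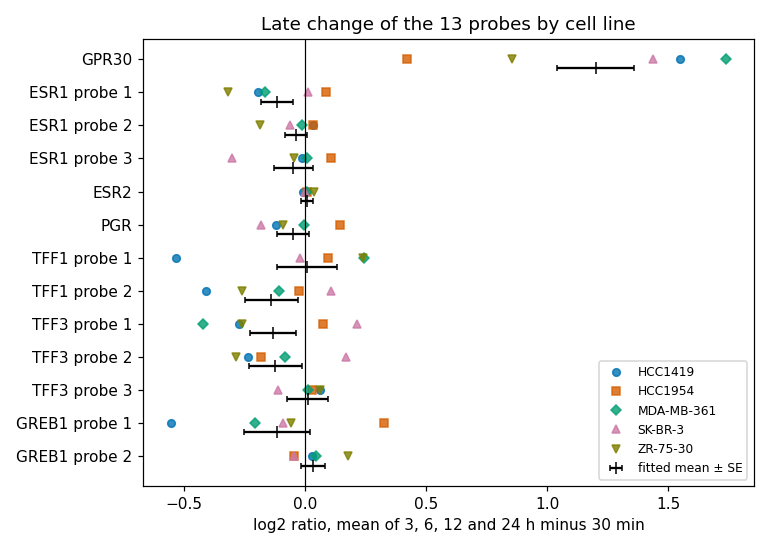
Late change of the log2 ratio (mean of 3, 6, 12 and 24 h minus 30 min) for the 13 probes: colored symbols are the 5 lines and the black mark is the fitted mean ± SE. GPR30 lies between 0.42 and 1.74, and the other 12 probes have fitted means between -0.14 and 0.03.

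ESR1 encodes the alpha receptor, and its brightest probe (10 spots, chr6:152465601-152465660, plus strand, hg18) had a late change of -0.12 ± 0.07 (SE, adjusted p = 0.965). By line it was 0.09 in HCC1954, 0.01 in SK-BR-3, -0.17 in MDA-MB-361, -0.20 in HCC1419 and -0.32 in ZR-75-30. At 12 h its log2 ratio was -0.52 in ZR-75-30, -0.51 in MDA-MB-361, -0.16 in HCC1419, 0.02 in HCC1954 and 0.03 in SK-BR-3. The 3 lines with the highest vehicle levels of this probe were below 0 at 12 h, and at 24 h the values of all lines were between -0.14 and 0.26. The other ESR1 probes, at chr6:152170741-152170800 and spanning chr6:152064775-152170671, had late changes of -0.04 and -0.05. Their ratios correlated with those of the brightest probe at r = 0.14 and r = -0.21 over the 30 arrays, which come from 5 lines. ESR2, the beta receptor (10 spots, chr14:63786020-63786079, minus strand), was well above background on 0 arrays in either channel, so no direction can be read from it.

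PGR, the progesterone receptor gene (chr11:100417919-100417978, minus strand), was well above background in both channels on 7 arrays, 6 of them from MDA-MB-361 and 1 from HCC1954. In MDA-MB-361 its late change was -0.0038. The trefoil factor genes TFF1 and TFF3 encode small secreted mucosal peptides. TFF1 probe 1 (chr21:42655482-42655541, minus strand) had a late change of 0.01 ± 0.12 (SE), with line values from -0.53 in HCC1419 to 0.24 in MDA-MB-361 and ZR-75-30; its 6 h spot in ZR-75-30 was flagged as an outlier and dropped. TFF1 probe 2 (chr21:42656509-42656568) had -0.14 ± 0.11. The ratios of these probes correlated at r = 0.21 over 29 arrays, against r = 0.98 for their vehicle levels, which follow the differences between lines.

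TFF3 was the member outside GPR30 that came nearest to a called ratio. Probe 1 (chr21:42605215-42605251, minus strand) had a log2 ratio at 24 h of -0.84 in ZR-75-30, -0.65 in HCC1419, -0.47 in MDA-MB-361, 0.14 in HCC1954 and -0.21 in SK-BR-3, a mean of -0.41 ± 0.38 (SD, n = 5, limma adjusted p = 0.0574). The limma p-values of probes 1 and 2 rest on a spread shared by all 30 arrays, taken as independent, and not on the SD printed beside them. The ratio was below 0 in 4 of 5 lines, HCC1954 apart, where the TFF3 level was near background. Probe 2 (chr21:42605306-42605365) had a mean of -0.37 ± 0.40 at 24 h (limma adjusted p = 0.166, n = 5), with its lowest value, -1.002, in ZR-75-30, the single 2-fold value among these 12 probes. Probe 3 (chr21:42608600-42608659) had -0.13 ± 0.35 at 24 h. Probes 1 and 2 are close neighbors and their ratios correlated at r = 0.81 over 30 arrays, whereas probe 3 correlated with them at r = 0.09 and r = 0.12.

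In all, 0 of 72 tests of a probe's ratio against 0 at a time point were called by limma without a block, and 9 had an unadjusted p under 0.05. The share of all probes called in these tests was 0.0805% for 30 min, 0.973% for 1 h, 0.349% for 3 h, 0.176% for 6 h, 0.463% for 12 h and 1.58% for 24 h. With the line as a block 4 of 72 were called, all lower with BMP4: TFF3 probe 1 at 12 h (-0.39, adjusted p = 0.0168) and 24 h (-0.41, adjusted p = 0.00729), TFF3 probe 2 at 24 h (-0.37, adjusted p = 0.0274) and ESR1 probe 1 at 12 h (-0.23, adjusted p = 0.0459). That fit called 1.90% of all probes at 12 h and 4.44% at 24 h. It took the differences between lines out of the error, so its p-values speak for these lines alone and not for lines in general. At 30 min the ratio of TFF3 probe 1 was already -0.25 in ZR-75-30 and -0.35 in SK-BR-3. A dye bias, which would enter a ratio set against 0, was not tested, because no array had swapped dyes.

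GREB1, an early estrogen target and receptor cofactor, had a late change of -0.12 ± 0.14 (SE, adjusted p = 0.978) on probe 1 (chr2:11700131-11700190, plus strand), which the array assigns to transcript variant a. Its 24 h log2 ratio was -0.68 in HCC1419, -0.50 in MDA-MB-361, 0.30 in ZR-75-30, -0.04 in HCC1954 and -0.06 in SK-BR-3. HCC1419 and MDA-MB-361 were thus low and ZR-75-30 high at 24 h, although GREB1 was well above background in all 3 lines. Probe 2 (chr2:11643394-11643453), assigned to variant c, had a late change of 0.03 ± 0.05.

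**Figure D4:**
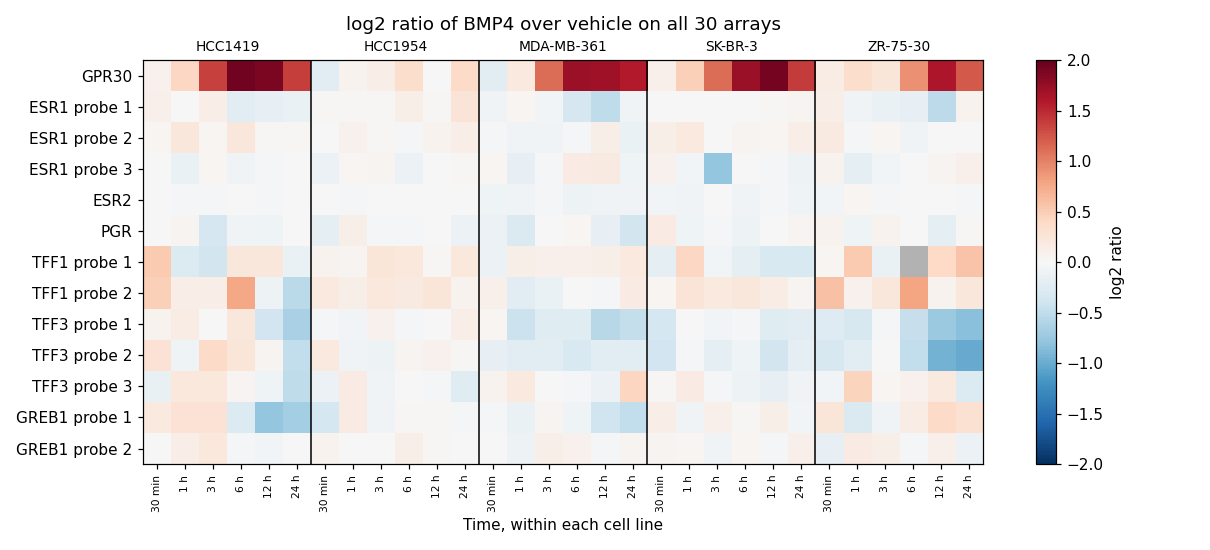
Each cell is the log2 ratio of BMP4 over vehicle of 1 probe on 1 array, red for higher and blue for lower with BMP4, with arrays ordered by line and time; the gray cell is the dropped TFF1 spot. The GPR30 row holds 14 values of at least 1, and the other rows hold 1 value beyond 1 in size, TFF3 probe 2 in ZR-75-30 at 24 h.

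The late change differed between lines for 0 of these 12 probes by limma's F test, and 0 had an unadjusted p under 0.05; of all probes 0.0588% were called. The ratio over all times differed between lines for 2 of 12, TFF3 probe 1 (adjusted p = 0.0238) and TFF3 probe 2 (adjusted p = 0.0130), and 22.2% of all probes were called by the same test, a share not below that of the members. The mean log2 ratio of TFF3 probe 1 was lowest in ZR-75-30, at -0.44 ± 0.30 (SD over 6 arrays), and highest in HCC1954, at 0.02 ± 0.08. Neither probe was called when ZR-75-30 or MDA-MB-361 was left out. The vehicle level over time was called for 0 of 12 probes (1 with an unadjusted p under 0.05), beside 0.144% of all probes.

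The vehicle level differed between lines for 12 of 13 probes, ESR2 apart, and for 73.1% of all probes by limma's F test. Over the 10 pairs of lines 46.7% of all tests were called. HCC1419, MDA-MB-361 and SK-BR-3 shared no scan day with another line. Line and scan day therefore cannot be told apart in the pairs that hold any of these lines. The 6 arrays of a line are cultures harvested at different times, so their spread includes both culture and array, and levels are compared between lines for each probe and not between probes.

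GPR30 was highest in vehicle-treated HCC1419 cells and lowest in HCC1954. Its log2 vehicle level had a lowest, median and highest value of 13.75, 13.98 and 14.39 in HCC1419, 11.93, 12.06 and 12.51 in MDA-MB-361 and 8.26, 8.86 and 9.45 in SK-BR-3. In ZR-75-30 the values were 7.68, 8.24 and 8.63, and in HCC1954 they were 7.35, 7.42 and 7.76. All 10 pairs of lines differed, from 93.2-fold between HCC1419 and HCC1954 (adjusted p = 2.50e-19) down to 1.58-fold between ZR-75-30 and HCC1954 (adjusted p = 0.00358). HCC1419 was 3.69-fold above MDA-MB-361 (adjusted p = 4.24e-09) and MDA-MB-361 9.63-fold above SK-BR-3 (adjusted p = 1.32e-13). SK-BR-3 was 1.65-fold above ZR-75-30 (adjusted p = 0.00164). The single arrays overlapped for the neighbors SK-BR-3 and ZR-75-30 and for ZR-75-30 and HCC1954, and for no other pair. SK-BR-3 and ZR-75-30, neighbors in vehicle level, had late changes of the GPR30 ratio of 1.44 and 0.86.

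**Figure D5:**
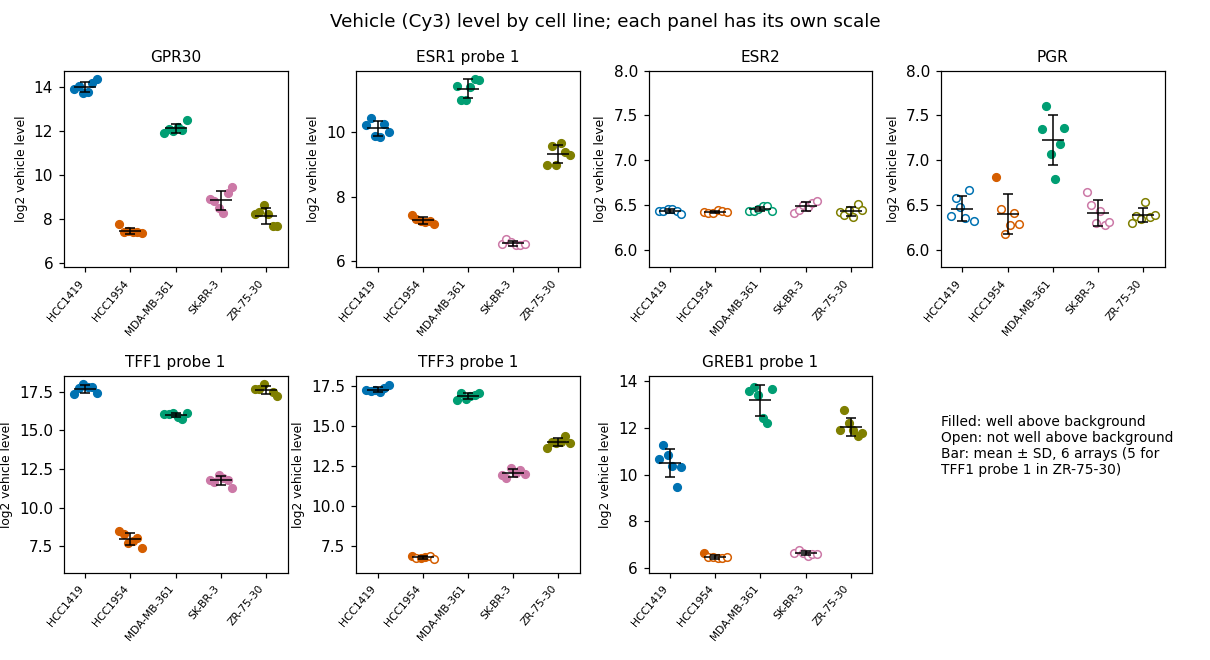
Log2 vehicle level (Cy3) of the brightest probe of each gene by line, with 1 point per array and a bar for the mean ± SD; open points were not well above background. GPR30 runs from a mean of 14.01 in HCC1419 to 7.47 in HCC1954, and ESR1 probe 1 from 11.36 in MDA-MB-361 to below background in SK-BR-3.

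ESR1 probe 1 was highest in MDA-MB-361, with a lowest, median and highest log2 level of 11.01, 11.43 and 11.66. It was 9.84, 10.14 and 10.45 in HCC1419, 8.99, 9.34 and 9.67 in ZR-75-30 and 7.14, 7.24 and 7.42 in HCC1954. None of the 6 arrays of SK-BR-3 had it well above background. The 5 lines did not overlap for this probe and all 10 pairs were called. MDA-MB-361 was 2.36-fold above HCC1419 (adjusted p = 9.51e-09), HCC1419 1.75-fold above ZR-75-30 (adjusted p = 6.23e-06) and ZR-75-30 4.16-fold above HCC1954 (adjusted p = 1.26e-12). Against SK-BR-3, MDA-MB-361 was at least 25.7-fold higher (adjusted p = 7.62e-20) and HCC1954 at least 1.496-fold higher (adjusted p = 3.23e-05). These folds are nominal bounds, set against the lowest signal well above background on the SK-BR-3 arrays. Their p-values test the measured levels and not the bound. The other ESR1 probes gave another picture of the lower lines: in SK-BR-3 vehicle-treated cells probe 2 passed the background test on 4 of 6 arrays (mean log2 level 7.06) and probe 3 on 1 of 6. Probe 2 was highest in MDA-MB-361 too, 1.38-fold above SK-BR-3 (adjusted p = 5.88e-07), while probe 3 was highest in ZR-75-30, so the order of the lines for ESR1 depends on the probe.

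GREB1 probe 1 was well above background on all arrays of ZR-75-30, MDA-MB-361 and HCC1419, the 3 lines with the highest level of ESR1 probe 1. Its mean log2 vehicle level was 13.18 ± 0.67 in MDA-MB-361 (SD, 6 arrays), 12.03 ± 0.40 in ZR-75-30 and 10.48 ± 0.60 in HCC1419, and 1 of 6 arrays of HCC1954 and 0 of 6 of SK-BR-3 had it above background. MDA-MB-361 was at least 88.1-fold above SK-BR-3 (adjusted p = 5.79e-19), and HCC1419 at least 13.6-fold (adjusted p = 1.58e-14). ZR-75-30 and HCC1419 stood in the opposite order for probe 1 of GREB1 and of ESR1, with GREB1 2.92-fold higher in ZR-75-30 (adjusted p = 2.08e-07). PGR was above background on 6 of 6 arrays in MDA-MB-361, where it was at least 1.54-fold above HCC1419 (adjusted p = 8.22e-07).

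The trefoil factors were lowest in HCC1954 and higher in each of the other 4 lines. TFF1 probe 1 had mean log2 vehicle levels of 17.68 ± 0.26 in HCC1419, 17.61 ± 0.28 in ZR-75-30 (5 arrays), 11.76 ± 0.29 in SK-BR-3 and 7.98 ± 0.38 in HCC1954. HCC1419 was 1.05-fold above ZR-75-30 on this probe, within their spread (adjusted p = 0.729), and on probe 2 ZR-75-30 was the higher of both, 1.40-fold (adjusted p = 0.00769). Each other pair was called for probe 1, with HCC1419 3.21-fold above MDA-MB-361 (adjusted p = 8.72e-10), MDA-MB-361 18.9-fold above SK-BR-3 (adjusted p = 3.58e-17) and SK-BR-3 13.8-fold above HCC1954 (adjusted p = 3.83e-16). TFF3 probe 1 was at 17.28 ± 0.17 in HCC1419, 16.89 ± 0.18 in MDA-MB-361, 13.96 ± 0.24 in ZR-75-30, 12.04 ± 0.24 in SK-BR-3 and 6.76 ± 0.09 in HCC1954, where 3 of 6 arrays were well above background. All 10 pairs were called for TFF3, and SK-BR-3 was 38.9-fold above HCC1954 (adjusted p = 8.50e-22). HCC1954 was the lowest line for GPR30 as well.

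Across the 30 arrays, which are 6 from each of 5 lines and so follow mainly the differences between lines, the vehicle level of ESR1 probe 1 correlated with that of the brightest probe of GREB1 at r = 0.92, TFF3 at r = 0.80, TFF1 at r = 0.76 and GPR30 at r = 0.71. The 5 genes most like ESR1 in vehicle level, of 14395 compared, were BEX4 (BEXL1 on the array, r = 0.99), the ketone body enzyme gene OXCT1 (r = 0.99), the profilin gene PFN2 (r = 0.98), the Na-K-Cl cotransporter gene SLC12A2 (r = 0.98) and WSB2 (r = 0.98). GREB1 was at rank 168 in that order. None of the 5 was called for the late change (adjusted p from 0.828 to 0.999).

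By the log2 ratio, the genes most like GPR30 over the 30 arrays, of 14101 compared, were FLJ39609 (r = 0.90), the apoptosis regulator PAWR (r = 0.82), the calcineurin regulator RCAN3 (DSCR1L2 on the array, r = 0.82), the Cdc42 effector CDC42EP3 (r = 0.82) and the mitochondrial factor MTERF4 (MTERFD2 on the array, r = 0.82). Their late changes were 0.87 for FLJ39609, 0.62 for MTERF4, 0.48 for CDC42EP3, 0.38 for RCAN3 and 0.35 for PAWR, given with no test because likeness to the GPR30 ratio chose these genes. The 4 ID genes were less alike in course, with r = 0.66 for ID4 (rank 41), r = 0.44 for ID1 (rank 587), r = 0.42 for ID2 (rank 725) and r = 0.29 for ID3 (rank 2008). DUSP2 (r = 0.74, rank 12) and SAMD11 (r = 0.69, rank 28), named after their values were seen, were nearer to GPR30 than the ID genes. The ratios of GPR30 and ESR1 probe 1 correlated at r = -0.50 over the 30 arrays, and those of GPR30 and TFF3 probe 1 at r = -0.40.

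In 7 further lists of pathway genes, 0 of 54 genes measured were called for the late change by limma, and 4 higher and 3 lower ones had an unadjusted p under 0.05, beside 1381 higher and 665 lower probes of 41000. The median late change of the 54 genes was -0.02, that of all probes 0.01. Of 10 receptor coregulators the largest estimates were 0.32 for the coactivator gene NCOA3 and -0.24 for NCOA2, and of 6 luminal partner factors they were -0.27 for XBP1 and -0.13 for the pioneer factor gene FOXA1. Of 17 other estrogen-induced genes MYC had the largest, -0.34 (adjusted p = 0.965, lower in 5 of 5 lines), then the cyclin D1 gene CCND1, 0.32 (adjusted p = 0.858). VDR, the vitamin D receptor gene, had a late change of -0.08 (adjusted p = 0.971). Of 3 estrogen-related receptors ESRRA, the one well above background on at least 15 arrays, had 0.05. Of 8 genes of estrogen synthesis and breakdown HSD17B1, which makes estradiol, had 0.45 ± 0.32 and the steroid sulfatase gene STS -0.18. Of 6 genes that GPR30 signaling is known to induce, EGR1 had -0.25 and FOS -0.15 (adjusted p = 0.971 and 0.965), with a list median of -0.04 and 1 of 6 above 0.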

How the data were processed

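The members and gene lists were chosen with earlier results of these data known. The 30 scanner files hold, per the file headers, Agilent Feature Extraction 9.5.1.1 output of a 44K human array (hg18); the study's methods name another version of that software and a linear normalization. Mean, background and processed signals are deposited as intensity values, and the authors also deposited the software's log10 ratio of Cy5 over Cy3 per spot. The authors' series matrix holds log2 ratios per array, which correlated with the log2 ratio of the processed signals at 0.9998 or above; the software's p-values per spot were not used. From the scanner files, intensities were background-corrected (normexp, offset 50), log2 ratios were normalized by loess within arrays with the 1639 control spots at weight 0, outlier spots were dropped and the spots of a probe averaged (limma 3.58.1 in R 4.3.3). Levels per channel came from Aquantile scaling. A probe counted as well above background where more than 50% of its spots had the software's flag.

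Late change, ratio against 0 at each time, differences between lines and vehicle level were fitted on all 41000 probes with limma, and p-values were Benjamini-Hochberg adjusted over all of them. The cell line pairs the samples of the time points: deviations from the time means correlated at 0.23 on average within a line and -0.06 between lines, so the fit with the line as a block is given where it changes a call. Where no array of a line had a probe well above background, the fold, given as "at least", is a nominal lower bound. It is set against the lowest signal well above background on those arrays, or the probe's own value where that was higher. That signal is not a strict limit, since some probes above it were not flagged. The p-value beside such a fold tests the measured levels. Named genes were all members, the 5 genes most correlated with GPR30 or ESR1, and of each list the called genes or else the 2 largest late changes among genes well above background on at least 15 of 30 arrays; EDN2 and GIPR were named after their values were seen. One gene of the lists is not reported here. Simulated data with 200 changed probes among 40248 gave back 96% of log2 late changes of 1 and 81% of 0.5. The simulated noise was independent between arrays and each change was the same in every line. Changes that differ between lines were not simulated, so these shares do not hold for them and may be too high. The number of arrays, 1 per line and time, limits the precision. Alternatives were other backgrounds and normalizations, filters, blocks and leaving out each line; a slide block, values within a scan day and another early level were added after seeing the data.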

Additional observations from a re-analysis of the deposited data

Results flagged for a closer look

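In 66 groups of arrays, the log2 ratios of the 5 lines at a time and the vehicle levels of the 6 arrays of a line for the brightest probe of each gene except ESR2, 3 had an array far from the others, where chance gives about 3.3. The GPR30 ratio at 12 h was -0.0074 in HCC1954, against 1.62 to 1.92 in the other lines. Because the GPR30 ratios chose the gene, this flag is a description and no test of GPR30. The GPR30 vehicle level in HCC1954 was 7.76 at 30 min, against 7.35 to 7.46 at the later times, and that of GREB1 probe 1 in HCC1954 was 6.65 at 30 min, the one array of that line where it was well above background. The high 30 min vehicle level of GPR30 in HCC1954 enters its low ratio at 30 min of -0.21 and so its late change of 0.42. No cause was tested.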

How the results depend on the processing

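The GPR30 late change stayed between 1.04 (mean of 30 min and 1 h as the early level) and 1.44 (1 median factor per array, where it was 2.93 in HCC1419) under 17 alternatives, and no other member was called for the late change under any of them. The ratio against 0 was called for 0 of 72 pairs of probe and time without a block, for 4 with replicate block (the cell line), for 1 without dim probes (TFF3 probe 1 at 24 h), and for 0 to 1 when a line was left out: TFF3 probe 1 at 24 h without HCC1954 and TFF3 probe 3 at 24 h without MDA-MB-361. No replicate block changed no call of the late change or of the vehicle level over time. The late change differed between lines for 1 probe with the software log ratio, PGR (adjusted p = 0.00439), whose software ratio was exactly 0 on 17 of 30 arrays. The ratio between lines, called for 2 probes, was called for 1 with the software log ratio and 1 with the authors' series matrix (TFF3 probe 2 in both), 0 with 1 median factor, and 0 to 2 when a line was left out (1 without HCC1954, 0 without MDA-MB-361 or ZR-75-30). The 15 values of at least 2-fold became 24 with 1 median factor and 24 with the series matrix, of which GPR30 held 14 and 15. Uncalled late changes turned sign: TFF1 probe 1 was -0.0021 with offset 16, -0.0045 with no replicate block, -0.0813 with array weights, -0.0627 with a slide block, -0.0407 with the other early level and -0.0538 to 0.140 when a line was left out; TFF3 probe 1 was 0.12 with 1 median factor; GREB1 probe 1 was 0.0353 with the software ratio and 0.0663 with the series matrix. The cause was not tested. Under 8 alternatives the vehicle level differed between lines for 11 to 13 of 13 probes, or for 10 of 10 with dim probes left out. The 13 of 13 came with the Cy3 processed signal over the 75th percentile and included ESR2. Signals near background, as for PGR, ESR2 and most members in HCC1954, limit what can be seen.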
